A study of Mus musculus with 12 samples.

Results

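The superoxide dismutases and catalase are 5 genes here, Sod1, Sod2, Sod3, Ccs and Cat, of the 55414 gene identifiers in the count table. They were chosen by name, with earlier results of these data known, and found through the Ensembl identifiers. It is not recorded which contrast was in view when they were chosen. Their comparisons below are therefore descriptions, and no p-value is given for them. Counts of how many of the 5 passed the threshold of the test over all genes are printed for scale only. All 5 genes passed the filter on low counts, as did 14435 identifiers in all.

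A superoxide dismutase converts superoxide to hydrogen peroxide and oxygen, and catalase splits hydrogen peroxide into water and oxygen. SOD1 is the copper and zinc enzyme of the cytosol, and CCS is the chaperone that loads it with copper. SOD2 is the manganese enzyme of the mitochondrial matrix, SOD3 is the secreted copper and zinc enzyme of the extracellular matrix, and catalase sits in peroxisomes. Fat cells are rich in mitochondria and peroxisomes that produce these oxidants, and catalase is abundant in mature fat cells.

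The cells were 3T3-L1, a mouse line of preadipocytes that turns into fat cells under hormones. The labels give its cell type as mesenchymal stem cells. Polyadenylated RNA was sequenced from 4 groups of 3 libraries: FHL2-GFP cells at day 2, control GFP cells at day 2, FHL2-GFP cells at day 0 and control GFP cells at day 0. The FHL2-GFP cells are labelled as overexpressing FHL2, a LIM-domain cofactor of transcription. Day 0 cells were confluent, and day 2 cells had then received insulin, dexamethasone and isobutylmethylxanthine in serum. All 4 groups carry a GFP construct, and the labels give neither its promoter nor whether the cells are 1 clone or a pool. They also do not say that the 3 libraries of a group came from separate cultures, so the spread between them may be technical.

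The libraries held 10047708 to 21872139 counts. A day 2 library detected 12689 to 16131 genes and a day 0 library 17977 to 18811. Libraries of a group also spread more at day 2, with a biological coefficient of variation of 0.463, than at day 0 (0.121). The mitochondrial share of counts was 2.43% to 2.95% at day 2 and 3.50% to 4.48% at day 0. Fhl2 itself had 18.7, 9.92 and 22.6 CPM (library-scaled counts, TMM method) in the FHL2 libraries at day 2, against 13.9, 14.2 and 20.99 CPM in the control libraries. At day 0 it had 67.4, 58.8 and 62.0 CPM in the FHL2 libraries and 58.9, 61.0 and 63.6 CPM in the control libraries. The counts of Fhl2 thus overlapped between the lines and do not show the labelled overexpression on either day. Below, "FHL2 libraries" means the libraries labelled FHL2-GFP. Of 10 preadipocyte and fibroblast markers, 10 had counts in each group, with a summed level of 25666 to 26014 CPM in FHL2 and 25641 to 28728 CPM in control at day 2, and of 29496 to 29626 CPM in FHL2 and 28979 to 31400 CPM in control at day 0. Of 9 adipocyte markers, 8 had counts in at least 1 library of each line at day 2. At day 0 this held for 5, and Adipoq, Plin1, Cidec and Lep were at 0. Adipoq at day 2 had counts of 0, 34 and 0 in FHL2 and of 43, 35 and 56 in control. Markers of macrophages and blood, endothelium, epithelium and skeletal muscle summed to at most 13.6 CPM per list in any library, with Epcam, Cldn5 and Myod1 at 0 throughout.

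RefSeq's table of gene starts (build GRCm38.p6) held 3 of the 5 genes, Sod1, Sod2 and Cat. The 250 bases before each start are shown because the 3 genes were higher together at day 2. Capitals mark matches on either strand to a TATA box, a CCAAT box, a GC box, the core of an NFAT site or the core of an antioxidant response element. The windows are chr16:90220512-90220761 on the plus strand for Sod1, chr17:13007589-13007838 on the plus strand for Sod2 and chr2:103485154-103485403 on the minus strand for Cat, each printed 5′ to 3′ on the strand of its gene.
Sod1: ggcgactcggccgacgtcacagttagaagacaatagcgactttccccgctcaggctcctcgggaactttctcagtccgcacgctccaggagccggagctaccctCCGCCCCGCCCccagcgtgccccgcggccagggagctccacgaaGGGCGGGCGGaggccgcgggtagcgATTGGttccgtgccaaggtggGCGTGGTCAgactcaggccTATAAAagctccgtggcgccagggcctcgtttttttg
Sod2: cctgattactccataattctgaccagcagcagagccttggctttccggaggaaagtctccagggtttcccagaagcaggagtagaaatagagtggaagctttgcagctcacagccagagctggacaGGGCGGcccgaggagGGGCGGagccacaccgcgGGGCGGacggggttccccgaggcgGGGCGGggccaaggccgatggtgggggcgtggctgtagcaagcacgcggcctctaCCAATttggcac
Cat: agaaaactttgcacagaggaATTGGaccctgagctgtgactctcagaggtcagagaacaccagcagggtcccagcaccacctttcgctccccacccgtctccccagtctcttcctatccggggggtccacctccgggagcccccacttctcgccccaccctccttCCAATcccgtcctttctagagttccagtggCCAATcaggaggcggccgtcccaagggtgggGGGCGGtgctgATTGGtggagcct
The Sod1 window held 4 GC boxes, some of them overlapping, with 1 TATA box, 1 CCAAT box and 1 antioxidant response element core. The Sod2 window held 4 GC boxes and 1 CCAAT box. The Cat window held 4 CCAAT boxes and 1 GC box. Over 32851 windows of the same length, the GC box, searched as GGGCGG, was in 32.7%. The CCAAT box, searched as its own letters, was in 33.9%, and the TATA box, searched as TATAAA, in 12.4%. The antioxidant response element core, searched as TGACNNNGC, was in 10.2%. The NFAT core, searched as TGGAAA and held by 18.6% of the windows, was in none of these 3. All 3 windows were richer in G and C (66.4% for Sod1, 63.6% for Sod2 and 62% for Cat) than the median window (52.4%). A match is a run of letters and no evidence of binding.

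All 5 genes were higher at day 2 than at day 0 in both lines, with no overlap between the libraries. Sod3 differed between the lines on both days, at 1.66-fold the control level at day 2 and 1.79-fold at day 0. Sod1 was 1.36-fold higher in the FHL2 libraries at day 2, whereas its day 0 libraries overlapped. Sod2, Ccs and Cat differed little between the lines.

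**Figure D1:**
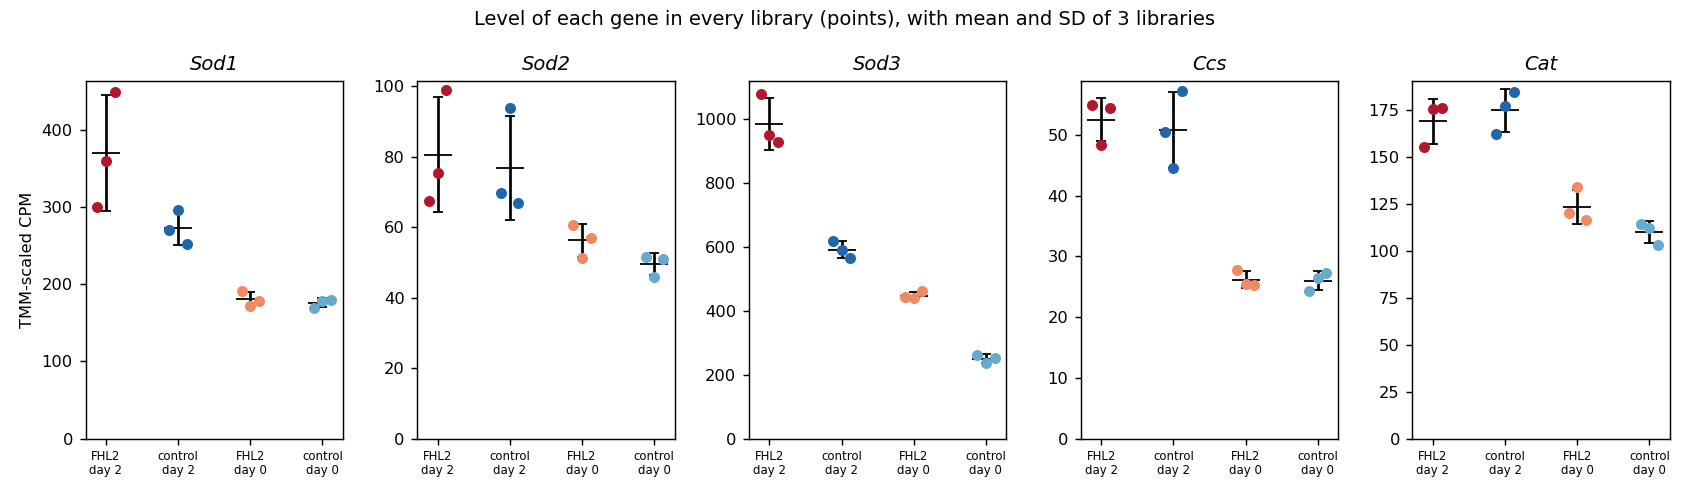
TMM-scaled CPM of each gene in all 12 libraries (points), with the mean and SD of the 3 libraries of a group (bars), for FHL2 and control at day 2 and at day 0. For all 5 genes the day 2 points lie above the day 0 points of the same line, and for Sod3 the FHL2 points also lie above the control points on both days.

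Sod3, the extracellular enzyme (ENSMUSG00000072941), had 1075, 948 and 925 CPM in the FHL2 libraries at day 2, against 618, 589 and 564 CPM in the control libraries. At day 0 it had 441, 438 and 461 CPM in the FHL2 libraries, against 262, 235 and 251 CPM in the control libraries. Each FHL2 library was above each control library on both days, and the 4 groups were fully separated from one another. The means at day 2 were 983 ± 80.8 CPM for FHL2 and 590.2 ± 26.7 CPM for control, and at day 0 they were 447 ± 12.5 CPM for FHL2 and 249 ± 13.6 CPM for control (SD, n = 3 each). On the log2 scale the difference between the lines was 0.74 (SE 0.080) at day 2 and 0.84 (SE 0.080) at day 0, with the direction taken from the labels. The difference between the days was 1.14 (SE 0.080) in FHL2 and 1.24 (SE 0.081) in control. FHL2 cells at day 0 were thus below control cells at day 2, by level and with no overlap.

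Sod1, the cytosolic enzyme (ENSMUSG00000022982), had 300.3, 360.1 and 449.6 CPM in the FHL2 libraries at day 2, against 270.9, 296.1 and 252.0 CPM in the control libraries. At day 0 it had 191.7, 172.1 and 178.0 CPM in the FHL2 libraries, against 169.4, 178.2 and 180.3 CPM in the control libraries. The day 2 groups were separated by a narrow gap, the lowest FHL2 library lying just above the highest control library, while the day 0 groups overlapped. Means were 370 ± 75.2 CPM for FHL2 and 273 ± 22.2 CPM for control at day 2, and 180.6 ± 10.1 CPM for FHL2 and 176 ± 5.81 CPM for control at day 0 (SD, n = 3 each). The log2 difference between the lines was 0.44 (SE 0.12) at day 2 and 0.038 (SE 0.12) at day 0. Replicate 3 of FHL2 at day 2 weighed on the first value, which was 0.26 without it. Both SE values rest on a spread shared by the days in the fit, although Sod1 spread more between libraries at day 2 in both lines. The SE at day 2 therefore does not show that wider spread. The annotated span of Sod1 overlaps Scaf4 on the opposite strand by 650 bases in GENCODE M21, and whether counting used strand is not stated in these sources. If strand was ignored, reads within that overlap cannot be told apart, and how such reads were counted is not stated. Scaf4 had 49.5, 43.9 and 52.7 CPM in the FHL2 libraries at day 2 and 39.4, 69.3 and 79.7 CPM in the control libraries.

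Ccs, the copper chaperone of SOD1 (ENSMUSG00000034108), had 54.9, 48.4 and 54.4 CPM in the FHL2 libraries at day 2, against 50.6, 44.6 and 57.2 CPM in the control libraries. At day 0 it had 27.8, 25.5 and 25.3 CPM in the FHL2 libraries, against 24.3, 26.4 and 27.3 CPM in the control libraries. The lines overlapped on both days. Day 2 means were 52.5 ± 3.61 CPM for FHL2 and 50.8 ± 6.32 CPM for control, and day 0 means were 26.2 ± 1.37 CPM for FHL2 and 26.02 ± 1.54 CPM for control (SD, n = 3 each). Within a library, counts of Sod1 were 7.06 ± 1.44 times those of Ccs in FHL2 and 5.47 ± 1.12 times in control at day 2. At day 0 this ratio was 6.90 ± 0.144 in FHL2 and 6.77 ± 0.185 in control. Counts of the 2 genes were thus in a nearly fixed proportion at day 0 and in a more variable one at day 2, when libraries of a group spread more over all genes. Protein was not measured.

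Sod2, the mitochondrial enzyme (ENSMUSG00000006818), had 67.4, 75.5 and 98.8 CPM in the FHL2 libraries at day 2, against 69.6, 93.8 and 66.9 CPM in the control libraries. At day 0 it had 60.6, 51.1 and 56.9 CPM in the FHL2 libraries, against 51.6, 45.9 and 51.0 CPM in the control libraries. A single high library stood out in each line at day 2, and the lines overlapped on both days. Day 2 means were 80.5 ± 16.3 CPM for FHL2 and 76.8 ± 14.9 CPM for control, and day 0 means were 56.2 ± 4.80 CPM for FHL2 and 49.5 ± 3.12 CPM for control (SD, n = 3 each).

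Cat, the peroxisomal catalase (ENSMUSG00000027187), had 155, 176 and 176 CPM in the FHL2 libraries at day 2, against 162, 178 and 185 CPM in the control libraries. At day 0 it had 120.1, 133.9 and 116.5 CPM in the FHL2 libraries, against 114, 112 and 103 CPM in the control libraries. The lines overlapped at day 2, and at day 0 the FHL2 libraries were all slightly above the control libraries. Day 2 means were 169 ± 11.9 CPM for FHL2 and 175 ± 11.5 CPM for control, and day 0 means were 124 ± 9.19 CPM for FHL2 and 110 ± 5.87 CPM for control (SD, n = 3 each). Counts of Sod3 were 5.85 ± 0.925 times those of Cat in the FHL2 libraries and 3.39 ± 0.382 times in the control libraries at day 2. At day 0 they were 3.63 ± 0.345 times those of Cat in FHL2 and 2.27 ± 0.170 times in control.

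Between the lines, the fitted log2 differences of Sod2, Ccs and Cat at day 2 were 0.069 (SE 0.16), 0.050 (SE 0.14) and -0.048 (SE 0.096). At day 0 they were 0.18 (SE 0.16) for Sod2, 0.0099 (SE 0.14) for Ccs and 0.17 (SE 0.096) for Cat. In what follows, called means an adjusted p under 0.05 in edgeR's quasi-likelihood test over all genes. At day 2, 1 of the 5 genes, Sod3, was called higher in FHL2 and none lower, beside 0.72% of all genes called higher and 1.35% called lower. At day 0, again 1 of the 5, Sod3, was called higher and none lower, beside 0.0208% and 0.0277% of all genes. Sod3 was 1 of the 7 genes called at day 0 in either direction, and 313 of the 14435 genes tested had a higher fitted log2 difference there, against 1579 at day 2. The FHL2 libraries were all above the control libraries for 2 of the 5 genes at day 2 (Sod1 and Sod3), against 7.28% of all genes, and for 2 at day 0 (Sod3 and Cat), against 10.5%. The numbers of genes called depend on the fit: with only the groups compared, 246 genes were called at day 0 and 39 at day 2. Since earlier results were known when the genes were chosen, these shares are given for scale only. The summed level of the adipocyte markers also differed by line at day 2, at 121 to 147 CPM in the FHL2 libraries and 175 to 224 CPM in the control libraries. Plin1, a lipid droplet protein, was at 2.64 to 6.02 CPM in FHL2 and 14.1 to 18.9 CPM in control. Not every marker separated the lines. Fabp4 was at 8.32, 9.28 and 8.42 CPM in FHL2 and at 19.6, 20.9 and 7.14 CPM in control. The part of the adipocyte markers in the day 2 differences of Sod3 and Sod1 was not tested. At day 0 these markers summed to 24.4 to 26.2 CPM in FHL2 and 25.6 to 31.1 CPM in control.

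**Figure D2:**
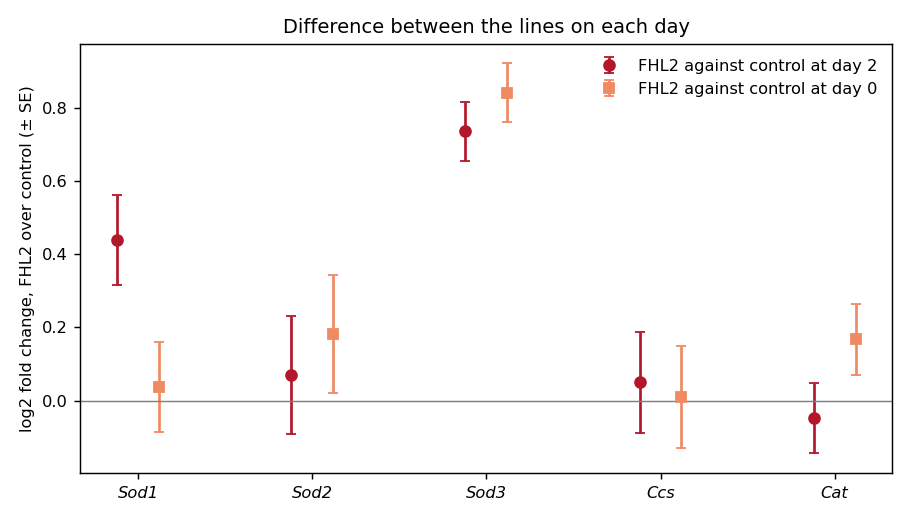
Fitted log2 fold change of FHL2 over control (points) with its standard error (bars) for each gene, at day 2 and at day 0. Sod3 lies at 0.74 and 0.84, Sod1 at 0.44 at day 2, and the other values lie between -0.048 and 0.18.

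Day 2 against day 0, the fitted log2 differences in FHL2 were 1.03 (SE 0.12) for Sod1, 1.00 (SE 0.14) for Ccs, 0.52 (SE 0.16) for Sod2 and 0.45 (SE 0.097) for Cat. In control they were 0.63 (SE 0.12) for Sod1, 0.96 (SE 0.14) for Ccs, 0.63 (SE 0.16) for Sod2 and 0.67 (SE 0.097) for Cat. Sod3 had the largest of the 5 differences in both lines before any correction for base composition. As folds, the difference was 2.2 in FHL2 and 2.37 in control for Sod3, and 2.01 in FHL2 and 1.95 in control for Ccs. All 5 genes were called higher in FHL2, beside 25.8% of all genes called higher and 30.2% called lower. All 5 were likewise called higher in control, beside 26.3% called higher and 30.8% called lower. Nothing is read from these counts. All day 2 libraries were above all day 0 libraries of the line for 29.2% of genes in FHL2 and 29.8% in control. The median over all genes tested was -0.11 in FHL2 and -0.14 in control. A bulk level cannot tell a change per cell from a change in which cells are present. The summed level of the adipocyte markers moved with the day as well as with the line. The part of these markers in the day differences was not tested.

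The differences between the days depended on how the base composition of the transcripts was treated, and those between the lines much less so. With a smooth correction per library for GC content, the day difference in FHL2 was 2.08 for Sod2, 0.75 for Sod3, 0.66 for Cat, 0.58 for Sod1 and 0.36 for Ccs. In control it was 2.34 for Sod2, 0.91 for Cat, 0.84 for Sod3, 0.31 for Ccs and 0.18 for Sod1. Over all genes, this correction gave 2990 called higher and 2502 lower in FHL2, against 3730 and 4357 without it, and 3122 higher and 2447 lower in control, against 3799 and 4447 without it. The Sod2 transcript has the lowest GC content of the 5 (42.2%, against a median of 49.8% over all genes tested), whereas its coding sequence alone has 54.1%. A correction by coding sequence gave 0.29 for Sod2 in FHL2 and 0.41 in control. Sod2 was higher at day 2 under each of these treatments, and the size of its difference was not settled by them. With transcript length corrected for as well, Sod1 was at 0.15 in FHL2 and turned to -0.21 in control, and Ccs was at 0.10 in both. Sod3 and Cat stayed at 0.45 or above in both lines under all of these corrections. The Sod3 difference between the lines was 0.74 at day 2 and 0.83 at day 0 with the GC correction.

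**Figure D3:**
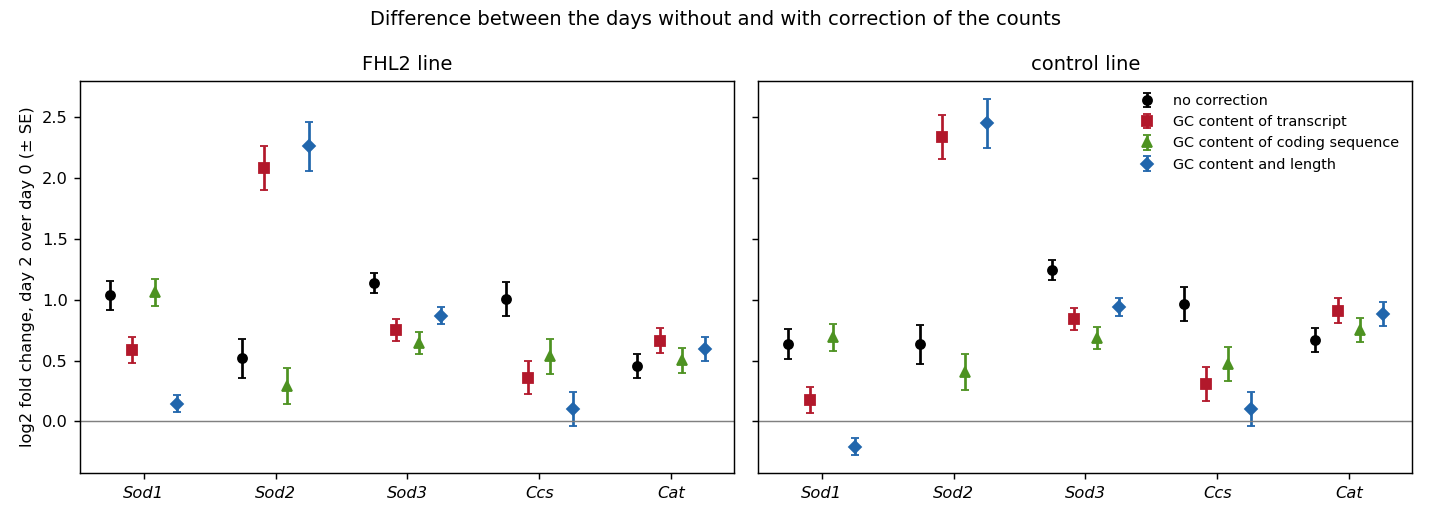
Fitted log2 fold change of day 2 over day 0 (points, with standard errors) for each gene in the FHL2 line (left) and the control line (right), without correction and with corrections for the GC content of the transcript, the GC content of the coding sequence, and GC content with length. Sod3 and Cat keep values of 0.45 or more throughout, Sod2 spans 0.29 to 2.45, and Sod1 and Ccs come close to 0 or below it once length is corrected for as well.

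The difference in day response between the lines was 0.40 (SE 0.17) for Sod1 on the log2 scale, with FHL2 above control. It was -0.21 (SE 0.14) for Cat, -0.11 (SE 0.23) for Sod2, -0.11 (SE 0.11) for Sod3 and 0.040 (SE 0.20) for Ccs. The values for Sod2, Sod3 and Ccs were no larger than their standard errors. All of these standard errors rest on a spread shared by both days.

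Per kilobase of the principal transcript, the order of levels was the same in all 4 groups, Sod1 first and then Sod3, Cat, Ccs and Sod2, and no 2 neighbours overlapped. In FHL2 at day 2 the values were 577, 263, 64.8, 49.2 and 13.7 CPM per kilobase in that order, against 426, 158, 66.97, 47.6 and 13.1 in control. In FHL2 at day 0 they were 282, 119, 47.3, 24.5 and 9.59, against 275, 66.7, 42.1, 24.4 and 8.45 in control. The order depends on the transcript model, since the principal transcript has 641 bases for Sod1 and 5861 for Sod2. Per kilobase of coding sequence, Sod3 led in FHL2 at day 2 (1305 against 801 for Sod1), in control at day 2 (784 against 591) and in FHL2 at day 0 (593 against 391), and Sod1 led in control at day 0 (381 against 331 for Sod3).

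The 5 profiles over the 12 libraries were compared by the root mean square difference of log2(CPM + 1) after each gene was centred on its mean. Sod2 and Cat were the closest pair (0.180), and Sod2 and Sod3 (0.499) the farthest, with Sod3 and Cat at about the same distance. These distances, and the closest genes below, hold for counts without the GC correction only. With it, the day differences of Sod2 and Cat lay apart, at 2.08 and 0.66 in FHL2 and at 2.34 and 0.91 in control. Among 9746 candidate genes, those closest to Sod1 were Rpl3, Eif3g and Psmb1 (0.0850 to 0.0959, median over all candidates 0.582). Those closest to Sod2 were Cby1, Srsf9 and Eif4a1 (0.101 to 0.103, median 0.506). Those closest to Ccs were Zdhhc4, Cnpy3 and Ino80e (0.0568 to 0.0685, median 0.612), and those closest to Cat were Usb1, Hadha and Gak (0.0729 to 0.0926, median 0.489). Sod3 had no neighbour as close, with Aplp1 at 0.149, Uqcc2 at 0.214 and Atraid at 0.238 (median 0.810).

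The genes around these enzymes were grouped into 5 lists, and their p-values are edgeR's, adjusted over all genes. The lists were chosen with earlier results of these data known, so these p-values describe the data and are no independent test. Pex5, Gpx8, Foxo1, Nox4, Nfe2l1 and Nfe2l2 were named after their values were seen. The counts of genes that rose or fell by day 2 in each list stand beside shares of all genes. These were 25.8% called higher and 30.2% lower in FHL2, and 26.3% and 30.8% in control. Counts after the GC correction stand beside 2990 called higher and 2502 lower of 14435 genes in FHL2, and 3122 and 2447 in control. None of the lists was tested as a set. Of 68 listed genes tested, 1 was called between the lines at day 2, against 3 with DESeq2 and 1 with limma-voom. Over all genes at day 2, edgeR called 0.72% higher in FHL2 and 1.35% lower, DESeq2 called 997 genes and limma-voom 308. At day 0, 0 were called by edgeR, DESeq2 or limma-voom. An unadjusted edgeR p under 0.05 was found for 11 of the 68 at day 2 and for 1 at day 0. No such count over all genes is given, so nothing is read from these numbers. Prdx2, a cytosolic peroxiredoxin that reduces hydrogen peroxide, averaged 595 ± 27.5 CPM in FHL2 and 464 ± 10.0 CPM in control at day 2 (n = 3 each; edgeR log2 difference 0.36, SE 0.074, adjusted p = 0.0240). It was no longer called when only the day 2 groups were fitted (adjusted p = 0.258). It also missed the threshold when any single library of the day 2 groups but replicate 1 of FHL2 was left out (adjusted p = 0.0525 to 0.0815). The replicate block with the GC correction lost the call too (adjusted p = 0.0671), as did the correction by GC content and length, where the log2 difference was 0.24 (adjusted p = 0.137). Over all alternatives its adjusted p ran up to 0.258 and down to 1.99e-05, the value with DESeq2.

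Other enzymes that remove peroxides mostly rose by day 2. Of 12 such genes, 10 were tested, and 9 rose and 1 fell in FHL2, with a median log2 difference of 0.96. In control 7 rose and 1 fell, with a median of 0.83. Gpx4, the peroxidase of lipid hydroperoxides, averaged 416 ± 26.7 CPM at day 2 and 133 ± 6.51 CPM at day 0 in FHL2 (edgeR log2 difference 1.64, SE 0.093, adjusted p = 7.57e-09). In control it averaged 407 ± 37.3 CPM at day 2 and 149 ± 8.94 CPM at day 0 (1.45, SE 0.093, edgeR adjusted p = 2.02e-08). Prdx2 and Prdx5, a peroxiredoxin of mitochondria and peroxisomes, also rose in both lines, by 1.64 and 1.42 in FHL2 and by 1.26 and 1.49 in control. The member that fell was Gpx8, of the endoplasmic reticulum, which was not called after the GC correction in either line. With that correction 8 genes of this list rose and 0 fell in both lines, with a median of 0.86 in FHL2 and 0.78 in control. Gpx4 then lay at 0.95 in FHL2 and 0.73 in control, Prdx5 at 0.78 and 0.84, and Prdx2 at 1.60 and 1.23.

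Genes of copper handling serve the metal on which Sod1, Sod3 and Ccs depend. Of 12 tested, 1 rose and 3 fell in FHL2 (median -0.69), and 1 rose and 4 fell in control (median -0.71). Atox1, the chaperone that hands copper to the secretory pathway pumps, averaged 91.5 ± 7.96 CPM at day 2 and 27.5 ± 1.32 CPM at day 0 in FHL2 (log2 difference 1.73, SE 0.14, edgeR adjusted p = 1.85e-07). In control it averaged 91.3 ± 15.6 CPM at day 2 and 25.2 ± 1.34 CPM at day 0 (1.86, SE 0.14, edgeR adjusted p = 9.81e-08). Atp7a, the pump that loads copper into the secretory pathway, fell to 15.2 ± 9.27 CPM at day 2 in FHL2, against 45.6 ± 2.59 CPM at day 0 (-1.58, SE 0.32, edgeR adjusted p = 0.000662). In control it fell to 18.9 ± 2.05 CPM at day 2, against 45.5 ± 8.80 CPM at day 0 (-1.27, SE 0.31, edgeR adjusted p = 0.00315). The fall of Atp7a was not called after the GC correction in FHL2 (adjusted p = 0.194) or in control (adjusted p = 0.827). Steap2, a metal reductase, averaged 43.9 ± 4.17 CPM at day 2 and 78.4 ± 7.18 CPM at day 0 in FHL2, a difference of -0.84 that turned to 1.13 with the GC correction. With that correction 5 genes of this list rose and 1 fell in both lines.

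Genes of peroxisome assembly and oxidation belong to the compartment of catalase. Of 27 tested, 11 rose and 7 fell in each line, and the median was 0.27 in FHL2 and 0.16 in control. Those that rose included Pex5, the receptor that imports peroxisomal enzymes, at 75.7 ± 11.2 CPM at day 2 and 44.7 ± 4.01 CPM at day 0 in FHL2 (0.76, SE 0.13, edgeR adjusted p = 0.000169). With the GC correction Pex5 was no longer called in FHL2 (0.17, adjusted p = 0.314) or in control (0.22, adjusted p = 0.179). The assembly factor Pex16 rose by 1.53 in FHL2 and 0.72 in control. The import factors Pex6 and Pex10 rose by 1.19 and 0.89 in FHL2 and by 1.42 and 1.46 in control. Ech1, an enzyme of fatty acid oxidation, rose by 1.38 in FHL2 and 1.16 in control. With the GC correction Pex16 lay at 0.83 in FHL2 and -0.030 in control, and Pex6 at 0.52 and 0.63. Pex10 then lay at 0.25 in FHL2 and 0.81 in control, and Ech1 at 0.83 and 0.60. Of the listed genes tested, 0 were called in the interaction of line and day. Pex3, a membrane assembly factor, fell to 13.1 ± 0.950 CPM at day 2 in control, against 33.2 ± 2.16 CPM at day 0 (-1.34, SE 0.21, edgeR adjusted p = 6.67e-05), and lay at 0.23 with the GC correction. In FHL2 Pex3 was at -1.23, and at 0.22 with that correction. After that correction 11 genes rose and none fell in FHL2, and 12 rose and 1 fell in control.

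Of 17 genes of superoxide and peroxide producing oxidases, 6 were tested, and 2 rose and none fell in both lines. Xdh, xanthine dehydrogenase, which can act as an oxidase that makes superoxide, averaged 1384 ± 100.2 CPM at day 2 and 216 ± 16.1 CPM at day 0 in FHL2 (2.68, SE 0.090, edgeR adjusted p = 6.94e-11). In control it averaged 1312 ± 69.1 CPM at day 2 and 203 ± 13.6 CPM at day 0 (2.70, SE 0.091, edgeR adjusted p = 6.00e-11). Poldip2, a partner of the oxidase NOX4, rose by 1.38 in FHL2 and 1.24 in control. Nox4 itself was low, at 1.32 ± 0.573 CPM at day 2 and 2.72 ± 0.461 CPM at day 0 in FHL2, and was not called.

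Of 13 regulators of antioxidant genes, 4 rose (Keap1, Esrra, Foxo1 and Foxo3) and 3 fell (Sirt1, Bach1 and Ppargc1a) in both lines. The median was 0.076 in FHL2 and -0.062 in control. With the GC correction 2 were called higher and 3 lower in both lines. Keap1, Esrra and Foxo3 lost their calls in both lines, Foxo1 was still called, and Nfe2l2 (higher) and Nfe2l1 (lower) were newly called. Foxo1, a forkhead factor for which Sod2 and Cat are known targets, averaged 66.7 ± 18.3 CPM at day 2 and 35.4 ± 5.31 CPM at day 0 in FHL2 (0.91, SE 0.20, edgeR adjusted p = 0.00130). Bach1, a repressor at antioxidant response elements, fell to 13.8 ± 3.05 CPM at day 2 in FHL2, against 52.6 ± 3.39 CPM at day 0 (-1.93, SE 0.28, edgeR adjusted p = 4.53e-05). Ppargc1a, a coactivator of mitochondrial genes, fell by 2.11 in both lines (edgeR adjusted p = 0.00250 in FHL2 and 0.00284 in control), a call lost with the GC correction (adjusted p = 0.431 in FHL2 and 0.522 in control). Nfe2l2, which encodes NRF2, was at 111 ± 8.85 CPM at day 2 and 105 ± 1.14 CPM at day 0 in FHL2 and was not called (edgeR adjusted p = 0.504), but with the GC correction it was called higher at day 2 in FHL2 (0.62, adjusted p = 0.000305) and in control (0.54, adjusted p = 0.00105).

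**Figure D4:**
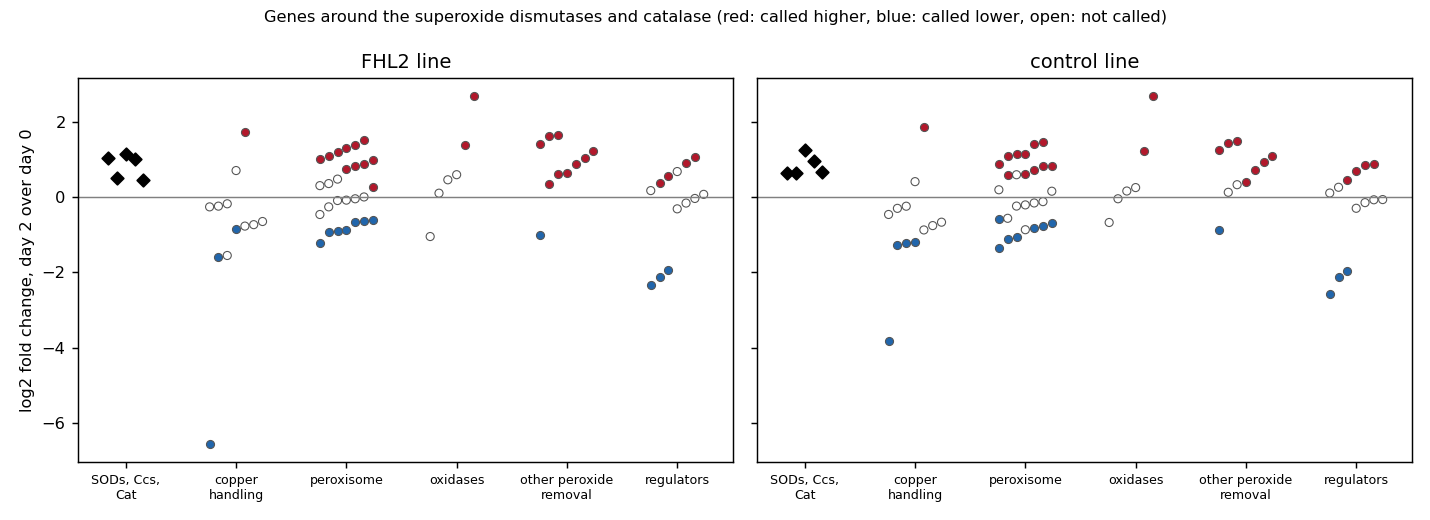
Fitted log2 fold change of day 2 over day 0 (points, 1 per gene tested) for the superoxide dismutases, Ccs and catalase (diamonds) and for the 5 lists of genes around them, in the FHL2 line (left) and the control line (right); red and blue points were called higher and lower, open points were not called. The 5 diamonds lie above 0 in both lines, the other peroxide removing enzymes are mostly red, and the copper and regulator lists hold both colours; the lowest copper point in FHL2 is Atp7b, which had no count there at day 2, so its fitted value is no bound.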

How the data were processed

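The authors deposited raw counts per Ensembl gene identifier in 1 table with a column for each of 12 libraries. Per the labels' protocols, RNA was extracted with TRI Reagent and libraries were made with a stranded kit for polyadenylated RNA. The submitters' processing notes name HISAT2 2.2.1 and HTSeq 0.11.0 on GRCm39 (mm39), with FastQC 0.11.9, Trimmomatic 0.39, limma and R 4.1.0. Settings, the strand option included, and the annotation release are not stated there.

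Groups came from the sample labels. Of 55414 identifiers, 52081 had a symbol. The test was edgeR 4.0.16 (R 4.3.3), with filterByExpr by group (14435 genes), TMM scaling and a quasi-likelihood fit of 1 mean for each group to all 12 libraries, with 2-sided p-values adjusted by Benjamini-Hochberg over all genes and calls at 0.05. The 5 comparisons were FHL2 against control on each day, day 2 against day 0 in each line, and their interaction. Each gene has 1 spread for both days in this fit, although libraries spread more at day 2, so its standard errors do not show that difference. SE values are from the fit; levels are TMM-scaled CPM with SD over libraries. The scripts were tested on simulated data with the same spread in all groups, which does not probe a spread that differs between the days. Alternatives were scaling by RLE or by upper quartile, no filter, 1 CPM in 3 libraries, DESeq2 1.42.0, limma-voom (limma 3.58.1), only the groups compared, the replicate number as a block, leaving out each library, leaving out the 3 day 2 libraries in which fewest genes were detected, and a smooth offset per library for GC content. Corrections by the GC content of the coding sequence, and by GC content with length, were chosen after seeing the data. GC content and lengths came from GENCODE M21 by identifier (99.8% of tested genes), and promoter sequence from RefSeq on GRCm38.p6, the build before that of the files.

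The members and lists were chosen with earlier results of these data known. The members were always named. Each list and comparison added up to 3 called genes of at least 5 CPM on average, taken by the size of their log2 fold change, not all of them printed. Pex5, Gpx8, Foxo1, Nox4, Nfe2l1 and Nfe2l2 were added after their values were seen, as were the other called genes that are named without a value. For likeness, the 3 closest genes of at least 5 CPM were taken. Depth covers counting error only.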

Additional observations from a re-analysis of the deposited data

How the results depend on the processing

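The replicate numbers were not taken to pair the libraries, since deviations of same-numbered libraries correlated at only -0.160 to 0.287 at day 0 and at -0.0203 to 0.152 in the other comparisons, and no comparison had every pair above 0.1. With the replicate number as a block, 11 genes were called between the lines at day 0, 209 at day 2, 7853 between the days in FHL2, 8014 in control and 1 in the interaction, against 7, 299, 8087, 8246 and 1 without it. With the block and the GC correction together, 5274 genes were called between the days in FHL2 and 5288 in control, where the log2 day difference was 0.58 in FHL2 and 0.18 in control for Sod1, 2.06 and 2.34 for Sod2, 0.75 and 0.84 for Sod3, 0.35 and 0.30 for Ccs, and 0.66 and 0.91 for Cat.

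The Sod3 difference between the lines stayed within 0.59 to 0.78 at day 2 and 0.80 to 0.87 at day 0 under all alternatives run. The day differences of all 5 genes kept their direction under all of them, except Sod1 in control, which turned to -0.21 once corrected for GC content and length. The day difference was 0.58 in FHL2 and 0.18 in control for Sod1 with the GC correction, 2.08 and 2.34 for Sod2, 0.75 and 0.84 for Sod3, 0.36 and 0.31 for Ccs, and 0.66 and 0.91 for Cat. By coding sequence it was 0.29 in FHL2 and 0.41 in control for Sod2, 0.64 and 0.68 for Sod3, and 0.53 and 0.47 for Ccs. With GC content and length it was 0.15 in FHL2 for Sod1, 2.26 in FHL2 and 2.45 in control for Sod2, 0.87 and 0.94 for Sod3, 0.10 and 0.10 for Ccs, and 0.60 and 0.88 for Cat, and Sod1 between the lines at day 0 was -0.063. Upper-quartile scaling gave day differences in control of 0.73 for Sod1, 1.34 for Sod3 and 0.77 for Cat. Without the 3 day 2 libraries in which fewest genes were detected, replicates 1 and 2 of FHL2 and replicate 3 of control, the day difference was 1.33 for Sod1 and 0.83 for Sod2 in FHL2 and 0.74 for Sod1 and 1.33 for Sod3 in control, Sod3 between the lines at day 2 was 0.59, and the interaction was 0.59 for Sod1 and -0.26 for Sod3; FHL2 then has 1 day 2 library, assumed to vary like the other groups. Leaving out 1 library at a time, the day difference in control was 0.60 to 0.75 for Sod1 and 1.19 to 1.34 for Sod3, and the interaction was 0.21 to 0.52 for Sod1 and -0.19 to -0.062 for Sod3. The causes of these shifts were not tested.

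Genes called between the lines at day 0 numbered 93 with DESeq2, 18 with limma-voom, 69 without the filter, 246 with only the groups compared, 135 without the 3 libraries, 12 with the GC correction (3 higher and 9 lower, against 3 and 4), 32 with GC content and length, and 1 to 5 leaving out 1 library. At day 2 they numbered 997 with DESeq2, 846 without the filter, 39 with only the groups compared, 1606 without the 3 libraries, and 146 to 404 leaving out 1 library. In the interaction they numbered 73 with DESeq2, 91 without the filter, 2 with upper-quartile scaling, 2 with the GC correction, 4 with GC content and length, 243 without the 3 libraries, and 0 to 6 leaving out 1 library. Of the listed genes, Steap2 between the days turned to 1.13 in FHL2 and 0.98 in control with the GC correction, to 1.13 and 0.98 with the block as well, and to 1.45 and 1.21 with GC content and length. Pex3 in control turned to 0.23, 0.23 and 0.10 under these and to 0.39 by coding sequence, where Atp7a in control turned to 0.34. The lowest count of the 5 genes in a library was 446, which speaks to counting error only. Fewer genes were detected in a day 2 library (12689 to 16131) than in a day 0 library (17977 to 18811), and the reason was not tested. The day 2 values are limited by 3 libraries a group and a spread at day 2 well above that at day 0.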
